A study of Mus musculus with 4 samples.

Results

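The genes described here are 10 genes that set the level of cAMP in adipocytes and pass it to the lipases: the adenylyl cyclases Adcy3, Adcy4, Adcy5 and Adcy6, the protein kinase A (PKA) subunits Prkaca, Prkacb and Prkar2b, the phosphodiesterase Pde3b, and the receptors Ptger3 and Hcar2. They were chosen by symbol and were 10 of the 19505 genes named on the array. Each had 1 probe set, and all 10 lay above the floor used for low values, a mean over the arrays of log2 4.67. RNA of epididymal fat from male mice was hybridised to 4 Clariom S Mouse arrays, 1 for each group. The GW-SA group received GW4869, an inhibitor of extracellular vesicle release, and had synergist ablation, in which helper muscles are taken out so that the remaining one is overloaded. The GW-Sham group received GW4869 and had sham surgery. The Veh-SA group received the DMSO vehicle and had synergist ablation, and the Veh-Sham group received the vehicle and had sham surgery. The sources used here do not give strain, age, dose, the time between surgery and sampling, or whether RNA was pooled over mice.

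In adipocytes, receptors coupled to the stimulatory G protein switch on adenylyl cyclase, which makes cAMP. The messenger releases the catalytic subunits of PKA from their regulatory subunits, and PKA then phosphorylates hormone-sensitive lipase and perilipin 1, so that stored triglyceride is broken down. Receptors coupled to inhibitory G proteins lower cyclase activity, and phosphodiesterase 3B, which insulin activates, destroys cAMP. Both act to restrain lipolysis.

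With 1 array per group no difference has a replicate check, no p-value was computed, and every statement describes these 4 arrays. Of the 10 genes, 9 had their highest value on the Veh-SA array, and the exception, Prkacb, had it on GW-SA. Among the 11703 genes above the floor, 30.1% had their highest value on Veh-SA. Most of the mature adipocyte markers used below were also highest on Veh-SA, all but Fabp4, Lep, Cidec, Aqp7 and Car3. The lowest value was on GW-SA for 4 of the 10 genes and on Veh-Sham for the other 6, and 22.3% and 45.9% of all genes had their lowest value on those arrays.

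The arrays differed in transcripts of the male reproductive tract, which touches every comparison below. All 15 measured sperm and testis markers stood at least 4 log2 units above Veh-SA on the Veh-Sham array, and 0 did so on GW-SA or GW-Sham. Of 19 measured epididymal markers, 14 did so on GW-SA, 1 on GW-Sham and 8 on Veh-Sham. A set of 6 distal tract genes, picked from these data earlier, was that high on both sham arrays for all 6. Smooth muscle markers, whose source was not tested, had medians of 9.45 on GW-SA, 11.98 on GW-Sham, 7.57 on Veh-SA and 11.89 on Veh-Sham. All 10 of them were at least 1.5-fold lower in overload than in sham, under GW4869 and under vehicle. Mature adipocyte markers were well above background on every array, with medians of 16.89 on GW-SA, 17.14 on GW-Sham, 16.98 on Veh-SA and 16.63 on Veh-Sham over 17 measured markers, so markers of the labelled tissue were present. Fewer adipocytes and less RNA per adipocyte cannot be told apart in bulk tissue, and the part of tract RNA in the differences below was not tested. The differences of the 17 markers had medians of -0.38 for overload under GW4869, 0.35 for overload under vehicle, -0.61 for GW4869 in overloaded mice and 0.15 for GW4869 in sham mice. Values relative to the adipocyte markers are differences less that median, a scale chosen after seeing the data, on which the median difference of all genes was 0.34 for overload under GW4869 and -0.094 under vehicle, against -0.036 and 0.26 as deposited. Single markers ranged from -1.47 to 0.0089 for overload under GW4869 and from -0.26 to 1.38 under vehicle. Fabp4 and Car3 lay close to the highest deposited value, 19.93, and whether this compresses their differences was not tested.

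**Figure D1:**
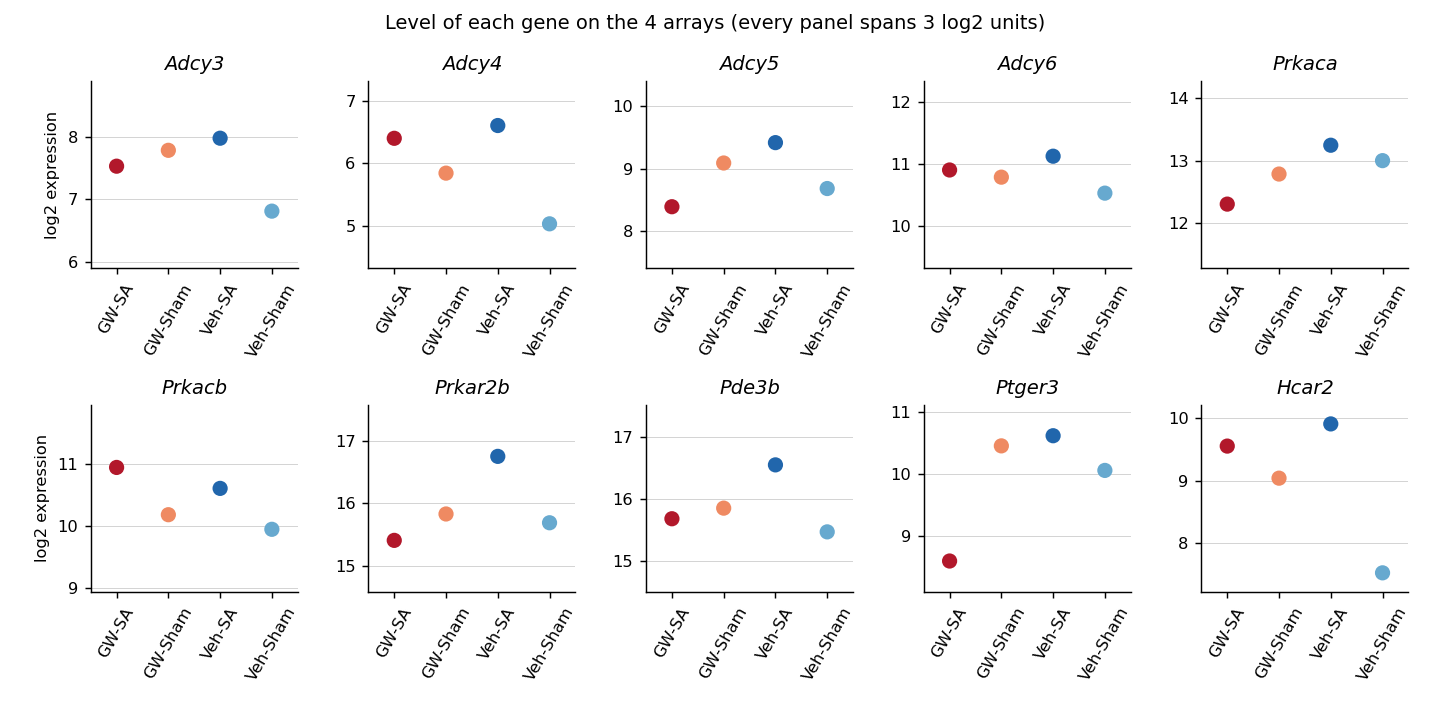
Level of each of the 10 genes on the GW-SA, GW-Sham, Veh-SA and Veh-Sham arrays. Points are the deposited log2 values of single arrays, and every panel spans the same number of log2 units; Veh-SA is the highest point in 9 panels, and GW-SA in the Prkacb panel.

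The adenylyl cyclases make cAMP from ATP. Adcy3, a cyclase of adipocytes and of olfactory cilia, had log2 values of 7.53 on GW-SA, 7.79 on GW-Sham, 7.98 on Veh-SA and 6.81 on Veh-Sham. Adcy5, which Gi proteins and calcium inhibit, had 8.39, 9.09, 9.42 and 8.69 on the same arrays. For Adcy3 the Veh-Sham array stood below the other 3, while for Adcy5 the lowest array was GW-SA. Adcy6, the close relative of Adcy5, varied least of the 10 genes, with 10.90 on GW-SA, 10.79 on GW-Sham, 11.13 on Veh-SA and 10.53 on Veh-Sham. Adcy4, a cyclase expressed in endothelium as well as in other tissues, read 6.40, 5.84, 6.61 and 5.03 in that order. Its values on both sham arrays lay below the 95th percentile of the antigenomic background probes, which was between 6.34 and 6.40, so its differences from those readings reach into background. Negative control rows of the table had 95th percentiles of 9.01 to 9.27, and Adcy3 and Adcy4 stayed under that line on all 4 arrays, Adcy5 on 3, Hcar2 on 2 and Ptger3 on 1. For Hcar2 these arrays were GW-Sham and Veh-Sham, and for Ptger3 the array was GW-SA. Their differences from those arrays rest on readings under that line.

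PKA is a tetramer of catalytic and regulatory subunits. Prkar2b encodes RII beta, the main regulatory subunit of mouse fat, and had 15.41 on GW-SA, 15.83 on GW-Sham, 16.75 on Veh-SA and 15.69 on Veh-Sham. Prkaca, the catalytic subunit alpha, had 12.30 on GW-SA, 12.78 on GW-Sham, 13.25 on Veh-SA and 13.00 on Veh-Sham. For both genes Veh-SA was the highest and GW-SA the lowest array. Prkacb, the catalytic subunit beta, ran otherwise, with 10.94 on GW-SA, 10.18 on GW-Sham, 10.60 on Veh-SA and 9.95 on Veh-Sham. Both arrays of overloaded mice were above both sham arrays for Prkacb, and for none of the other members except Adcy4, Adcy6 and Hcar2. Prkaca also has a form made in sperm, and the sources used here do not say which form its probe set reads.

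Because the 2 catalytic subunit genes ran differently, the 250 bases before their first transcription start are shown, from RefSeq promoter sequences on GRCm38.p6. RefSeq promoter entries were found for 7 of the 10 genes, with 12 starts in all. Capitals mark matches on either strand to the half-site of the cAMP response element (TGACG), the GC box (GGGCGG) and the CCAAT box (CCAAT), which overlap or abut in places. The Prkaca window lies at chr8:83972728-83972977 on the plus strand and the Prkacb window at chr3:146812947-146813196 on the minus strand, both written 5′ to 3′ along the gene.
Prkaca: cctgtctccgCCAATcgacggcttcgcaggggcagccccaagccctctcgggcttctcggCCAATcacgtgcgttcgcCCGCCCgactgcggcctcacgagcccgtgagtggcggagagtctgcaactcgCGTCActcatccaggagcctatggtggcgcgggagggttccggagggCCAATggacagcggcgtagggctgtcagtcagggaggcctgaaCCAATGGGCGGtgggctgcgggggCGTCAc
Prkacb: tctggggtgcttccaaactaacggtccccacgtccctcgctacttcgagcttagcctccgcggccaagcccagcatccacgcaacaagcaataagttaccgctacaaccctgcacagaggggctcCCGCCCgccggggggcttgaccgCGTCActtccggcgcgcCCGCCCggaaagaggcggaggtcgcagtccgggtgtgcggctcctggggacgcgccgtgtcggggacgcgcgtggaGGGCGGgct
The Prkaca window held 2 half-sites, 2 GC boxes and 4 CCAAT boxes, and the Prkacb window 1 half-site, 3 GC boxes and 0 CCAAT boxes. The full element (TGACGTCA) occurred in 0 of the 12 windows of these genes and in 1.55% of all 32851 RefSeq promoter windows of that length. The half-site occurred in 2 of the 12, against 17.8% of all windows, the GC box in 6 of the 12, against 32.7%, and the CCAAT box in 2 of the 12, against 33.8%. Such matches describe letters and not bound sites.

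Pde3b, the phosphodiesterase through which insulin lowers cAMP in fat, had 15.68 on GW-SA, 15.85 on GW-Sham, 16.55 on Veh-SA and 15.47 on Veh-Sham. The Veh-SA array stood apart and the other 3 lay close together. Ptger3 encodes EP3, a Gi-coupled receptor for prostaglandin E2, and had 8.61 on GW-SA, 10.45 on GW-Sham, 10.61 on Veh-SA and 10.06 on Veh-Sham. Here the GW-SA array stood below the other 3. Hcar2 encodes the receptor for niacin and beta-hydroxybutyrate, also found on macrophages and neutrophils, and had 9.55 on GW-SA, 9.04 on GW-Sham, 9.91 on Veh-SA and 7.52 on Veh-Sham. For Hcar2 it was Veh-Sham that stood below.

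Overload against sham under GW4869 asks whether fat differs after muscle overload in mice given the inhibitor. Vesicle release itself is not measured by these arrays. Of the 10 genes, 1 was at least 1.5-fold higher in GW-SA than in GW-Sham and 2 were at least 1.5-fold lower, where 13.4% of the 11703 genes were that much higher and 15.3% that much lower. The higher gene was Prkacb, with a log2 difference of 0.76, and 9.29% of all genes had a difference at least as high. The lower genes were Ptger3, at -1.84, and Adcy5, at -0.70, and 0.889% and 11.2% of all genes had differences at least as low. Adcy4 (0.56) and Hcar2 (0.51) came next on the positive side, and Prkaca (-0.48), Prkar2b (-0.42), Adcy3 (-0.25), Pde3b (-0.17) and Adcy6 (0.11) were within 1.5-fold. The members had a median of -0.21 and all genes a median of -0.04. Relative to the adipocyte markers, 3 were higher (Prkacb, Adcy4 and Hcar2) and only Ptger3 was lower, at -1.47, with a median of 0.17 over the 10. On that scale 31.6% of all genes were higher and 5.89% lower.

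The same contrast under vehicle asks how fat differs after overload without the inhibitor. All 10 differences were positive, as were those of 7517 of the 11703 genes. Of the 10, 8 were at least 1.5-fold higher in Veh-SA than in Veh-Sham, where 30.2% of all genes were that much higher. None of the 10 was 1.5-fold lower, where 16.9% of all genes were. Hcar2 had the largest difference, 2.39, and 0.120% of all genes had one at least as high. The cyclases Adcy4 (1.57), Adcy3 (1.17), Adcy5 (0.74) and Adcy6 (0.59) were all higher, Adcy6 only just past 1.5-fold. Pde3b (1.07) and Prkar2b (1.06), which act against the kinase by destroying cAMP and by holding the catalytic subunits, were higher by nearly the same amount. Prkacb was 0.66 higher, while Ptger3 (0.56) and Prkaca (0.25) did not reach 1.5-fold. The members had a median of 0.90, against 0.26 for all genes and 0.35 for the adipocyte markers. Relative to those markers, 5 of 10 genes were higher (Hcar2, Adcy4, Adcy3, Pde3b and Prkar2b), against 14.0% of all genes, and 0 were lower, against 25.5%. Prkaca then stood at -0.10 and the other 4 were between 0.21 and 0.39. With values under the antigenomic 95th percentile set to it, Adcy4 stood at 0.21 and was not higher. This contrast rests on the array with the sperm and testis markers.

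**Figure D2:**
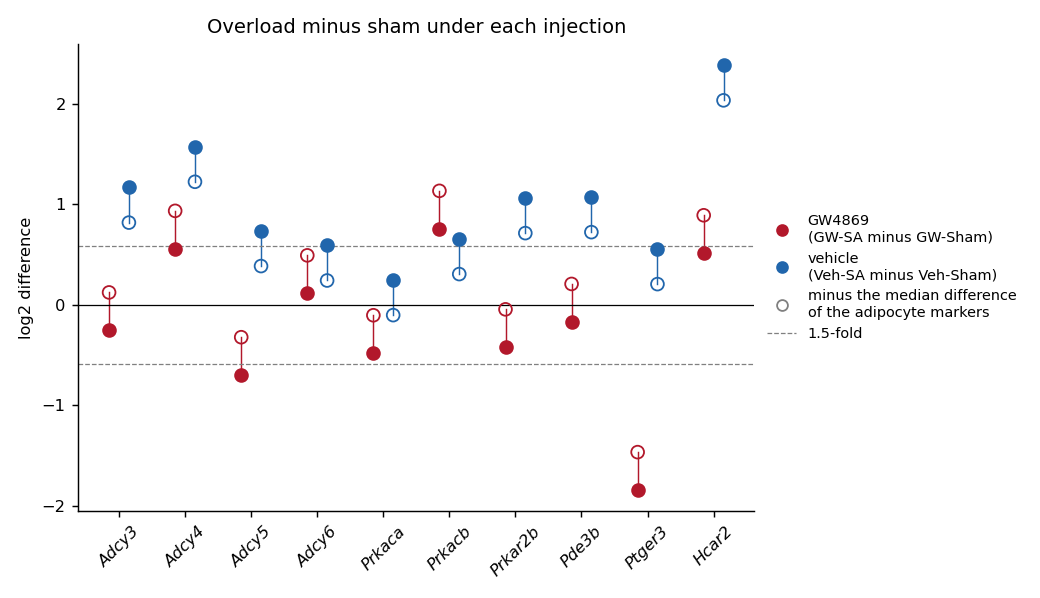
Overload minus sham for each of the 10 genes, with GW4869 (GW-SA minus GW-Sham, left point of each gene) and with vehicle (Veh-SA minus Veh-Sham, right point), in log2 units of single arrays without error. Filled points are deposited values, open points are the same less the median difference of the adipocyte markers, and dashed lines mark 1.5-fold; under vehicle all 10 filled points lie above 0, and under GW4869 Ptger3 is the lowest at -1.84.

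The difference between the overload differences, GW4869 minus vehicle, asks whether the inhibitor goes with another response to overload. It was negative past 1.5-fold for 8 of the 10 genes, where 36.3% of all genes were, and positive past 1.5-fold for 0, where 21.5% of all genes were. Ptger3 had -2.40, Hcar2 -1.87, Prkar2b -1.49, Adcy5 -1.44, Adcy3 -1.42, Pde3b -1.24, Adcy4 -1.02 and Prkaca -0.73. Adcy6 had -0.48 and Prkacb 0.10. The overload differences had opposite signs under the 2 injections for 6 of the 10 genes, as they did for 55.2% of all genes. The adipocyte markers themselves had a median of -0.83. Relative to it, 5 of 10 genes were negative past 1.5-fold, against 10.4% of all genes. These were Ptger3 (-1.57), Hcar2 (-1.04), Prkar2b (-0.66), Adcy5 (-0.61) and Adcy3 (-0.59), of which the last barely passed. Prkacb was positive at 0.93, where 49.0% of all genes were positive past 1.5-fold, and Prkaca turned positive at 0.10. All 4 arrays enter this value, so Veh-Sham with its testis markers and GW-SA with its epididymal markers both bear on it.

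GW4869 against vehicle in overloaded mice showed 5 of the 10 genes at least 1.5-fold lower in GW-SA than in Veh-SA, where 18.8% of all genes were, and 0 higher, where 18.4% of all genes were. Ptger3 had the lowest difference at -2.01, and 0.308% of all genes had one at least as low. Prkar2b followed at -1.35, Adcy5 at -1.03, Prkaca at -0.94 and Pde3b at -0.86. Adcy3 (-0.45), Hcar2 (-0.36), Adcy6 (-0.22), Adcy4 (-0.20) and Prkacb (0.34) were within 1.5-fold. The median was -0.66 for the members and -0.61 for the adipocyte markers, of which 9 of 17 were lower and 0 higher, against -0.04 for all genes. Relative to the markers, 2 of the 10 genes were lower, Ptger3 at -1.40 and Prkar2b at -0.74, where 3.85% of all genes were. Adcy5 (-0.42), Prkaca (-0.34) and Pde3b (-0.26) were then within 1.5-fold, and Prkacb was higher at 0.94, where 48.4% of all genes were. The members' median was -0.050 on that scale, so their median difference in overloaded mice was close to that of the adipocyte markers. In sham mice 3 of the 10 genes were at least 1.5-fold higher in GW-Sham than in Veh-Sham, where 28.9% of all genes were, and 0 were lower, where 14.4% of all genes were. These were Hcar2 (1.52), Adcy3 (0.97) and Adcy4 (0.81), the same genes that were lowest on Veh-Sham by the widest margin. The other 7 ran between -0.21 for Prkaca and 0.41 for Adcy5. Relative to the adipocyte markers the same 3 genes were higher, Hcar2 at 1.36, Adcy3 at 0.82 and Adcy4 at 0.66, where 20.5% of all genes were higher and 17.5% lower. Both sham readings of Adcy4 lay under the antigenomic 95th percentile. With deposited values under that percentile set to it, 2 of the 10 genes were higher, without Adcy4, where 21.8% of all genes were. The overload and the GW4869 comparisons share arrays, and their values are set side by side only.

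**Figure D3:**
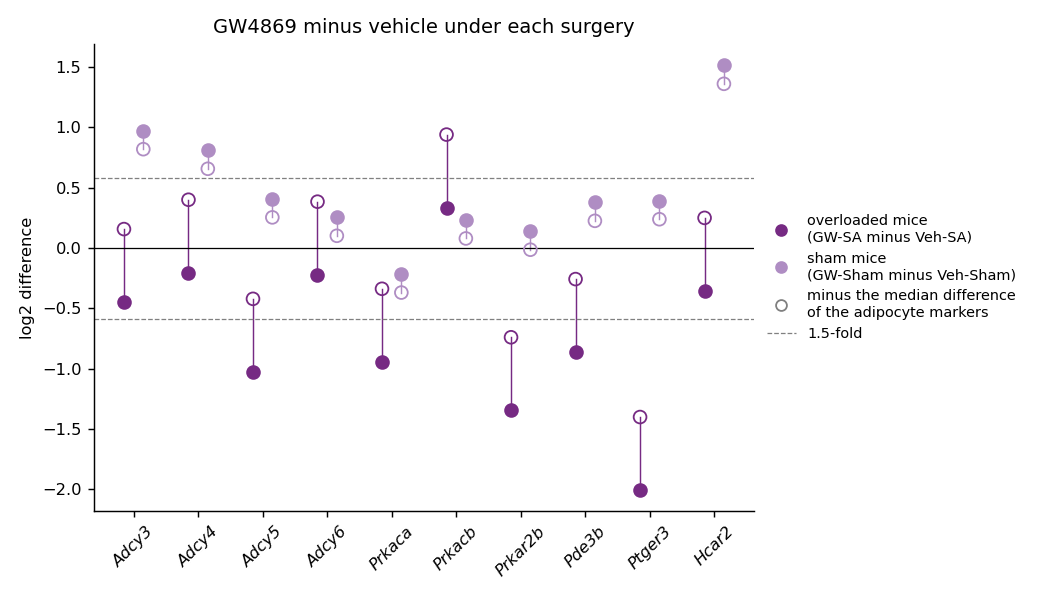
GW4869 minus vehicle for each of the 10 genes, in overloaded mice (GW-SA minus Veh-SA, left point) and in sham mice (GW-Sham minus Veh-Sham, right point), in log2 units of single arrays without error. Filled points are deposited values, open points are the same less the median difference of the adipocyte markers, and dashed lines mark 1.5-fold; in overloaded mice 5 filled points lie below the lower line, and in sham mice 3 lie above the upper line.

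The arrays with sperm or epididymal markers, Veh-Sham and GW-SA, were then left out, a step chosen after seeing the data. The pair that is left, Veh-SA and GW-Sham, differs in both injection and surgery, and the distal tract genes were high on GW-Sham. The 10 smooth muscle markers were all at least 1.5-fold lower in Veh-SA than in GW-Sham. All 10 members had positive differences, Veh-SA minus GW-Sham, as did 5872 of the 11703 genes. Of the 10, 4 were higher by at least 1.5-fold, where 11.1% of all genes were, while 0 were lower, where 14.9% of all genes were. These were Prkar2b (0.92), Hcar2 (0.87), Adcy4 (0.76) and Pde3b (0.69). The remaining 6 had differences between 0.16 for Ptger3 and 0.46 for Prkaca. The members had a median of 0.44, all genes of 0.0026 and the adipocyte markers of 0.17. Relative to those markers Pde3b stood at 0.52, within 1.5-fold, and Ptger3 at -0.0078.

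Counts for overload in this and the later gene lists stand beside the following shares of all genes. Under vehicle 30.2% were higher and 16.9% lower, and under GW4869 13.4% were higher and 15.3% lower. Other Gi-coupled receptors of fat were set beside Hcar2 and Ptger3. Of 4 above the floor, 2 were higher in overload under vehicle, while 0 were higher and 2 lower under GW4869. Hcar1, the lactate receptor and closest relative of Hcar2, had 13.01 on GW-SA, 13.06 on GW-Sham, 14.32 on Veh-SA and 12.13 on Veh-Sham, with overload differences of -0.05 under GW4869 and 2.18 under vehicle. Ffar2, a receptor for short-chain fatty acids, had differences of 0.35 and 1.46. Sucnr1, the succinate receptor, had -1.02 and 0.43, and Npy1r, a neuropeptide Y receptor that lay in background on 3 arrays, had -0.86 and 0.21. The probe sequences were not used here, so cross-hybridisation between Hcar1 and Hcar2, or between the catalytic subunits, was not tested. Receptors that raise cAMP had 5 members above the floor, all 5 of them higher under vehicle, while 2 were higher and 1 lower under GW4869. Tshr, the thyrotropin receptor, had -0.69 under GW4869 and 0.64 under vehicle. Mc2r, the corticotropin receptor, had -0.06 and 0.79, and Sctr, the secretin receptor, had -0.0047 and 1.07. Ptger2, also among the 5, lay below the antigenomic 95th percentile on all 4 arrays. Ptger4, the last of the 5, did so on every array but GW-SA. Their differences under vehicle, 1.29 and 0.60, therefore compare background readings. The beta-adrenergic receptors and Adora1 are not analysed here.

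Other genes of cAMP handling were mixed in direction. The 9 G protein genes above the floor had 3 higher and 1 lower under vehicle and 2 higher and 2 lower under GW4869. Rgs2, which shortens G protein signals, had 0.71 under GW4869 and 1.996 under vehicle, while Gnas, the stimulatory subunit, had -0.10 and 0.19. Gnai3, an inhibitory subunit, had 0.97 and 0.77. Gnaz, also of the inhibitory class and in background on 3 arrays, had -1.73 under GW4869, and Gng2, a gamma subunit, had 0.83 under vehicle. Gnao1, an inhibitory class subunit, had -2.77 under GW4869 and -1.87 under vehicle, and like the distal tract genes it was higher on both sham arrays. Among the other cyclases, 2 of 4 were higher and 1 lower under vehicle, and 1 was higher and 2 lower under GW4869. Adcy10, the soluble cyclase of sperm, stood at 9.87 on Veh-Sham and at or below 5.44, in background, on the other arrays. Adcy8, a calcium-stimulated cyclase, stood at 8.93 on GW-SA and at or below 5.55, in background, elsewhere. The array with the high Adcy10 value was the one with the sperm markers. The array with the high Adcy8 value had the most epididymal markers. On Veh-Sham, where 8 of those markers were also high, Adcy8 was in background. The source of either value was not tested. Adcy7 had -0.59 under GW4869 and 0.24 under vehicle, and Adcy9 had 0.58 and 1.998 with 3 arrays in background.

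Of 6 other PKA subunits and inhibitors, 1 was higher and 3 were lower under vehicle, and 0 were higher and 1 lower under GW4869. Prkar1a, the type I regulatory subunit, had differences of 0.12 under GW4869 and 0.05 under vehicle, unlike Prkar2b. Prkar2a, the other type II regulatory subunit, had 0.01 and -1.33, and Pkib, an inhibitor of the catalytic subunit, had 0.30 and -4.63. Both had their highest value on the Veh-Sham array, at 10.43 and 10.05, and the other 3 values of Pkib lay in background. Pkig, another inhibitor, had -0.57 and -1.52, and Pkia had -0.96 under GW4869. Of 9 anchoring proteins 3 were higher and 2 lower under vehicle, and 2 were higher and 1 lower under GW4869. Akap7 had -0.82 under GW4869 and 0.80 under vehicle, while Akap12 had -0.54 and -2.60 and was highest on Veh-Sham. Akap1, which tethers PKA to mitochondria, had 0.70 and -1.32, and Akap8 had 1.00 under GW4869. Of 12 other phosphodiesterases 3 were higher and 4 lower under vehicle, and 1 was higher and 3 lower under GW4869. Pde4b, itself induced by cAMP, had 1.01 under GW4869 and 0.42 under vehicle. Pde2a had -0.75 and 0.44, and Pde10a, in background on 2 arrays, had -1.23 under GW4869. Pde8a, Pde1c and Pde4a, at -2.21, -3.52 and -1.14 under vehicle, had their highest values on the Veh-Sham array, and the other 3 values of Pde1c and Pde4a lay in background. Rapgef3, the cAMP-activated exchange factor Epac1, had -0.24 and -0.10.

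Downstream of PKA, 5 of 10 genes that cAMP induces were higher under vehicle and 0 lower, and 4 were higher and 0 lower under GW4869. Ppargc1a, a coactivator of mitochondrial genes, had 0.84 under GW4869 and 1.92 under vehicle. Sik1, a salt-inducible kinase, had 0.72 and 1.03. Fos lay below the antigenomic 95th percentile on all 4 arrays. Nr4a3, an orphan nuclear receptor named here after its values were seen, had 9.40 on GW-SA, 9.65 on GW-Sham, 5.46 on Veh-SA and 4.99 on Veh-Sham, so it was higher on both GW4869 arrays. Of 8 CREB factors, coactivators and salt-inducible kinases, 3 were higher and 1 lower under vehicle, and 1 was higher and 2 lower under GW4869. Crtc2, a CREB coactivator, had 0.096 under GW4869 and 1.02 under vehicle. Its relatives Crtc3 and Crtc1 had -0.82 and -0.62 under GW4869, and the factor Atf1 had -1.10 under vehicle. The 6 lipases and droplet proteins had 3 higher and 0 lower under vehicle, with G0s2, the inhibitor of adipose triglyceride lipase, at 1.31 and Lipe, hormone-sensitive lipase, at 0.91. Under GW4869 0 of the 6 were past 1.5-fold, and their median was -0.33. Plin1, perilipin 1, had -0.38 under GW4869 and 0.60 under vehicle, Lipe had -0.37 under GW4869, and Mgll, monoglyceride lipase, had -0.43. Between the overloaded arrays 4 of the 6 were lower in GW-SA than in Veh-SA and 0 higher, with a median of -0.75. Of all genes 18.8% were lower and 18.4% higher in that comparison. Oxct1, an enzyme of ketone body use, had -0.85 under GW4869 and 0.49 under vehicle.

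The insulin arm that activates PDE3B had counts like those of the members. Under vehicle 8 of its 9 genes were higher and 0 lower, with a median of 0.93, and under GW4869 0 were higher and 3 lower, with a median of -0.26. Irs1, an insulin receptor substrate, had -1.02 under GW4869 and 2.68 under vehicle. Pik3r1, a regulatory subunit of phosphoinositide 3-kinase, had -1.54 and 1.55. Abhd15, which stabilises PDE3B in mouse fat, had -0.59 and 0.93. Abhd15 was highest on GW-Sham and the other pair on Veh-SA. Pik3ca, a catalytic subunit of the kinase, had 1.00 under vehicle. Over all 14 pathway lists together, 89 genes lay above the floor, of which 38 were higher and 17 lower under vehicle and 11 were higher and 24 lower under GW4869. Of all genes, 30.2% were higher and 16.9% lower under vehicle, and 13.4% higher and 15.3% lower under GW4869.

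**Figure D4:**
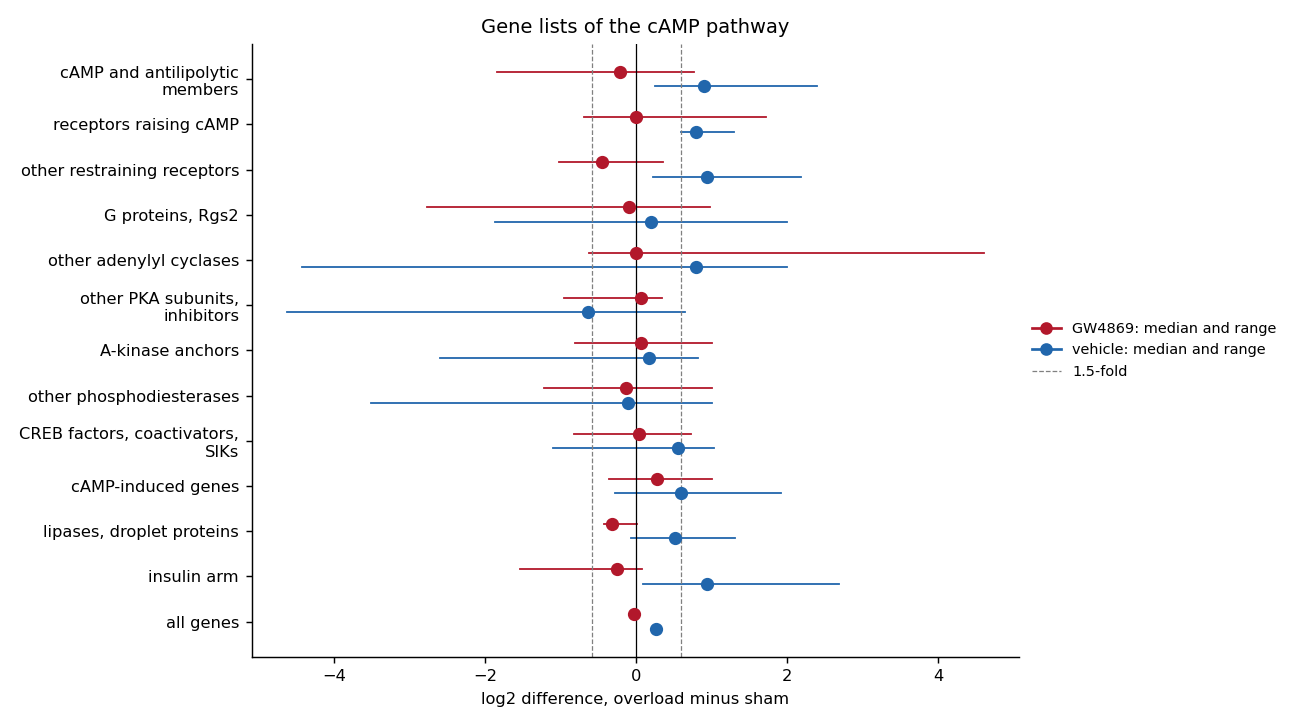
Log2 difference of overload minus sham for lists of cAMP pathway genes above the floor, with GW4869 (upper mark of each row) and with vehicle (lower mark). Points are medians and lines run between the lowest and highest gene of a list, with no error; the point for all genes has no line, and dashed lines mark 1.5-fold. Under vehicle the members and the insulin arm have medians of 0.90 and 0.93. The 4 other restraining receptors have 0.94, the 5 receptors raising cAMP 0.79, and all genes 0.26.

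Ptger3 answers to prostaglandin E2, and genes of its supply, removal and other receptors were taken from the same arrays. Of 9 above the floor, 2 were higher and 6 lower under GW4869, and 3 were higher and 5 lower under vehicle. Plaat3, the phospholipase that feeds prostaglandin E2 synthesis in mouse adipocytes, had 15.27 on GW-SA, 15.95 on GW-Sham, 16.32 on Veh-SA and 15.84 on Veh-Sham, the same order as Ptger3. Ptgs2, the inducible cyclooxygenase and a member of the distal tract set, had 6.18 on GW-SA, 14.30 on GW-Sham, 2.52 on Veh-SA and 14.26 on Veh-Sham. Ptges, a prostaglandin E synthase, had 10.55, 12.39, 10.20 and 12.69 in that order. Hpgd, which degrades the prostaglandin, and Slco2a1, its uptake carrier, were also higher on both sham arrays, with overload differences of -2.93 and -2.35 under GW4869 and of -2.01 and -2.91 under vehicle. Ptges2, another prostaglandin E synthase, had 8.11 on GW-SA, 9.28 on GW-Sham, 9.58 on Veh-SA and 8.10 on Veh-Sham. Ptger3, Plaat3 and Ptges2 did not share that split, since the Veh-SA value of each was the highest of the 4. Ptger4, the Gs-coupled receptor EP4, was 1.72 higher in GW-SA than in GW-Sham, and its other 3 values lay below the antigenomic 95th percentile, so this difference reaches into background.

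**Figure D5:**
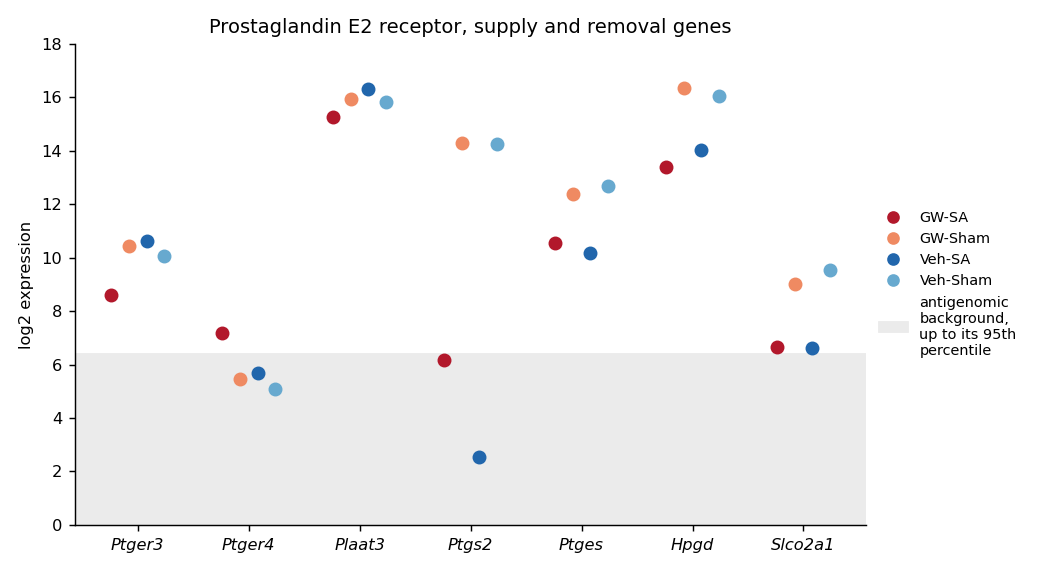
Log2 expression of the prostaglandin E2 receptor genes Ptger3 and Ptger4 and of genes for its supply and removal on the GW-SA, GW-Sham, Veh-SA and Veh-Sham arrays, left to right for each gene. Points are single arrays and the shaded band reaches up to the highest antigenomic 95th percentile, 6.40; Ptger3 is low on GW-SA alone, while Ptgs2, Ptges, Hpgd and Slco2a1 are higher on both sham arrays.

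Markers of other cells that can carry these receptors were read on the same arrays. Mast cell markers had 1 higher and 3 lower of 5 above the floor under GW4869, beside -1.84 for Ptger3. The lower ones were Cpa3 at -1.68, Tpsb2 at -1.93 and Mcpt4 at -1.51. Kit, in background on 3 arrays, went the other way at 2.75, and Fcer1a, in background on all 4, had -0.14. Under vehicle 3 of the 5 were higher and 0 lower. Of 8 measured fibroblast and progenitor markers, 5 were lower and 0 higher under GW4869, and 2 were higher and 0 lower under vehicle. Macrophage markers had medians of 11.02 on GW-SA, 10.58 on GW-Sham, 9.62 on Veh-SA and 8.98 on Veh-Sham over 9 measured genes. Veh-Sham was the lowest array for these markers as for Hcar2, whose highest array was Veh-SA. In GW-Sham against Veh-Sham all 9 macrophage markers were higher, where 28.9% of all genes were. Their median was 1.60, beside 1.52 for Hcar2. Under vehicle overload 5 of 9 were higher and 0 lower, with a median of 0.71, beside 2.39 for Hcar2. Of 9 measured neutrophil markers, all 9 lay below the antigenomic 95th percentile on GW-Sham, Veh-SA and Veh-Sham and 5 did so on GW-SA. The 5 neutrophil markers above the floor were all higher in GW-Sham than in Veh-Sham, with a median of 1.42 that compares background readings. Endothelial markers, relevant to Adcy4, had medians of 8.37 on GW-SA, 9.31 on GW-Sham, 9.69 on Veh-SA and 8.77 on Veh-Sham over 9 measured genes. Veh-SA was their highest array, as it was for Adcy4, while their lowest was GW-SA and that of Adcy4 was Veh-Sham. Under vehicle overload 6 of the 9 were higher and 0 lower, with a median of 0.91, beside 1.57 for Adcy4, and under GW4869 0 were higher and 5 lower, with a median of -0.65, beside 0.56. The part of these cells in the differences was not tested.

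The genes whose profile over the 4 arrays lay closest to Ptger3 and Hcar2, by root mean square distance after centring each gene on its own mean, are given as a description, since 4 points leave many genes close. For Ptger3 they were Cdkn2c, a cell cycle inhibitor, at 0.094 log2 units, Gpt, alanine aminotransferase, at 0.11, and Acss2, which makes acetyl-CoA from acetate, at 0.14. All 3 were lowest on GW-SA by more than 1 log2 unit. For Hcar2 they were Ccdc170 at 0.14, Rgs2 at 0.15 and Lrmp at 0.17, and all 3 were lowest on Veh-Sham and highest on Veh-SA.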

How the data were processed

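Values were deposited by the authors as log2 signals of probe sets; the submitters' processing notes name Partek and RMA, and the sources used here hold no version or setting. On this scale the highest value was 19.93. From 28846 table rows, 19572 probe sets had a gene symbol in the platform annotation, and the probe set with the highest mean was kept for each of 19505 genes. The floor was the 40th percentile of gene means, which left 11703 genes. Differences of log2 values between single arrays were counted at 1.5-fold, and counts of members are set beside the share of all genes. No test was possible with 1 array per group, so precision is limited by having 4 arrays. The counting was tested on simulated data. Alternatives were centring on the median gene or on the median adipocyte marker, lowess trend removal (fraction 0.3), the mean of probe sets, values under the floor set to it, 2-fold, and no floor. The floor at the antigenomic 95th percentile the pair Veh-SA and GW-Sham, and the subtraction of the markers' median difference were added after seeing the data. Members, lists and comparisons were chosen with earlier results of these data known. Beside the members, genes named are up to 3 per pathway list with the largest overload differences, the 3 nearest profiles of Ptger3 and Hcar2, and others named as background to a member or chosen after their values were seen, among them Gnas, Prkar1a, Plaat3, Nr4a3 and the marker genes. The lists held 119 pathway genes, of which 104 were measured. Analysis used Python 3.11.15, pandas 2.3.3, numpy 2.4.6 and statsmodels 0.14.6.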

Additional observations from a re-analysis of the deposited data

Results flagged for a closer look

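For 6 of the 10 genes the overload difference was negative under GW4869 and positive under vehicle. GW4869 minus vehicle, it came to -1.42 log2 units for Adcy3, -1.44 for Adcy5, -0.73 for Prkaca, -1.49 for Prkar2b, -1.24 for Pde3b and -2.40 for Ptger3. Of these only Adcy5 was past 1.5-fold in both, at -0.70 under GW4869 and 0.74 under vehicle. Less the adipocyte markers' median the value for Prkaca was 0.10, of the other sign. The differences were not tested, since each group has 1 array, and 55.2% of all genes had opposite signs too.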

How the results depend on the processing

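No paired analysis was possible because each group has 1 array, and no array can be left out within a group. Of 350 differences of single genes under other settings, 314 kept their call at 1.5-fold, and 23 changed sign. The 314 include 50 from averaging probe sets and 50 from raising low readings to the floor, and none of these could change. Each member had 1 probe set, and no reading of a member lay under the floor. Those values therefore say nothing about stability. A difference past 1.5-fold changed sign in 2 cases. The first was Adcy4 for GW4869 in sham mice, at -0.052 with values under the antigenomic 95th percentile set to it, against 0.81 as deposited, because both sham readings lie in background. The other was Prkaca in the difference between the overload differences, at 0.10 less the markers' median difference, against -0.73. Subtracting that median gave 3 higher and 1 lower gene for overload under GW4869, 5 higher under vehicle, 1 higher and 2 lower for GW4869 in overloaded mice (0 and 5), and 1 higher and 5 lower for the difference between the overload differences (0 and 8). Centring each array on its median marker was in effect centring on 1 gene, Cidec, which held that place on all 4 arrays. It gave 3 higher and 1 lower gene for overload under GW4869 (as deposited 1 and 2), 5 higher under vehicle (8), 1 higher and 1 lower for GW4869 in sham mice (3 and 0), and 1 higher for the difference between the overload differences (0). Removing the trend gave 2 higher under GW4869 and 5 higher under vehicle. At 2-fold there were 0 higher and 1 lower for overload under GW4869, 5 higher under vehicle, 3 lower for GW4869 in overloaded mice (5) and 1 higher in sham mice. The other settings, which include those that could not alter a member, left each count of members within 1.5 times. Over all genes, subtracting the markers' median difference gave 3694 higher and 689 lower under GW4869, 1643 and 2983 under vehicle, 5666 and 450 for GW4869 in overloaded mice, and 5733 and 1220 for the difference of differences. Centring on Cidec gave 2744 higher and 957 lower under GW4869 (1564 and 1787) and 1643 and 2983 under vehicle (3537 and 1972). For GW4869 in sham mice it gave 1158 and 3396 (3385 and 1690), and for the difference of differences 4649 and 1856 (2519 and 4252). Trend removal gave 1793 higher under vehicle, 1706 higher for GW4869 in sham mice and 2797 lower for the difference of differences. At 2-fold all genes had 727 higher and 624 lower under GW4869, 1394 higher under vehicle, 1101 and 765 for GW4869 in overloaded mice (2156 and 2202), 1394 higher in sham mice and 2473 lower for the difference of differences. Without the floor they had 2365 and 2862 under GW4869, 5311 and 3259 under vehicle, 3785 lower for GW4869 in overloaded mice, 2961 lower in sham mice, and 4138 and 6639 for the difference of differences. Low signal limits Adcy4 most, followed by Adcy3. The lowest readings of Ptger3, on GW-SA, and of Hcar2, on Veh-Sham, also lay under the 95th percentile of the negative control rows.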
